A study of Sus scrofa with 12 samples.

Results

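The circRNAs described here are exon-intron circles of pig liver, closed RNA loops that by the annotation of the deposited table hold both exon and intron sequence. They are the 1978 circRNAs that the table types as exon-intron and places off chromosomes X and Y, of 24177 circRNAs in all. The choice used the annotation type and the chromosome, and no measured value. They came from 1201 host genes and held 40849 of the 625980 back-splice counts of the 12 libraries, or 6.526%. A back-splice count is a read across the junction where a downstream end was joined to an upstream start.

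Most circRNAs consist of exons alone and are exported to the cytoplasm. Exon-intron circles keep an intron between their exons and stay largely in the nucleus. In human cells, circles of this kind from EIF3J and PAIP2 bind the U1 small nuclear ribonucleoprotein at the promoter of their own gene, associate with RNA polymerase II and raise its transcription. In these pig livers EIF3J had no circRNA of any type, and PAIP2 had an exonic circle with 12 counts in 6 libraries and no exon-intron circle.

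Liver was taken on day 15 from Hezuo pigs and Bama pigs, 2 Chinese breeds, housed in the cold at -15 ± 2 °C or at room temperature at 23 ± 2 °C. Each of the 4 groups had 3 pigs: Hezuo in the cold, Hezuo at room temperature, Bama in the cold and Bama at room temperature. The series asks which RNAs of the liver go with the Hezuo breed's tolerance of cold. The labels number the pigs within each group, so replicates are separate animals, and they give no age or sex.

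Gene counts per library ran between 20041285 and 30188037 and back-splice counts between 39117 and 75616. Each library had between 510 and 736 exon-intron circles detected, with 2303 to 4788 counts in them. The hepatocyte gene ALB, which encodes albumin, was high in all 12 libraries, at 15280 to 120100 counts per 1000000 (CPM), and all 9 hepatocyte markers listed were detected. Hepatocyte markers summed to 77900 to 145000 CPM in Hezuo pigs in the cold, against 147000 to 173000 CPM in Hezuo pigs at room temperature, and to 54500 to 119000 CPM in Bama pigs in the cold, against 131000 to 138000 CPM in Bama pigs at room temperature. The 6 Kupffer cell and macrophage markers summed to 999 to 2230 CPM in Hezuo cold, against 571 to 999 CPM in Hezuo room temperature, and to 2050 to 3940 CPM in Bama cold, against 1100 to 1830 CPM in Bama room temperature. These sums differed between temperatures, their part in any circle's difference was not tested, and in bulk liver fewer cells of a type and less RNA per cell cannot be told apart. The Y-linked gene DDX3Y was at 0 to 0.109 CPM in the 3 Bama pigs at room temperature and at 0 in Bama cold replicate 2. It was at 54.14 CPM or more in the other 8 libraries, so that at room temperature this gene and breed cannot be told apart. Among Bama pigs it was high only in the cold, at 114 and 135.8 CPM in replicates 1 and 3. It thus went in part with temperature in Bama, and its part in any circle's difference was not tested.

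Exon-intron circles were longer and lower than the exonic circles of the same libraries, and were counted in fewer pigs. Their median span on the genome was 14495.5 bases, against 9589.5 for the 19118 circles made of annotated exons, and their median length in the table was 3607 bases, against 567. In 575 of them (29.07%) that length equalled the whole span, so no base between the ends was taken as spliced out, and 0 exonic circles were of that kind. The annotation type sorts circles by whether they hold intron sequence. These differences in length were therefore set in part by the choice of the exon-intron circles. Their median total over the 12 libraries was 5 counts, against 8 for exonic circles, and 682 (34.479%) were counted in 1 library, against 18.794% of exonic circles. All 12 libraries held 80 of them (4.044%), against 8.411% of exonic circles. A few circles carried much of the class: the 10 most counted held 29.533% of exon-intron counts, against 6.9% for the 10 most counted exonic circles, and 50 circles held 50% of the counts, against 762 exonic circles. The 975 circles of 1 exon were also low and concentrated, with a median of 5 counts, 42.769% of them in 1 library, 31.015% of their counts in the 10 most counted and 50% in 30 circles.

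The ends of these circles mixed exon borders used by other circles with positions of their own. An end was shared with an exonic circle at 1 side in 950 (48.028%), at both sides in 2, and at neither side in 1026 (51.871%). In the RefSeq annotation, which was used here for gene names and neighbours alone, both ends lay in 1 gene in 1733 circles (87.614%), against 99.383% of exonic circles. Another 136 had 1 end outside genes and 30 had both ends outside. In 79 circles (3.994%) the ends lay in different genes, against 0.115% of exonic circles. Those 79 had a median span of 36522 bases and carried 19.048% of all exon-intron counts, against 0.169% of exonic counts carried by the 22 exonic circles of that kind.

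**Figure D1:**
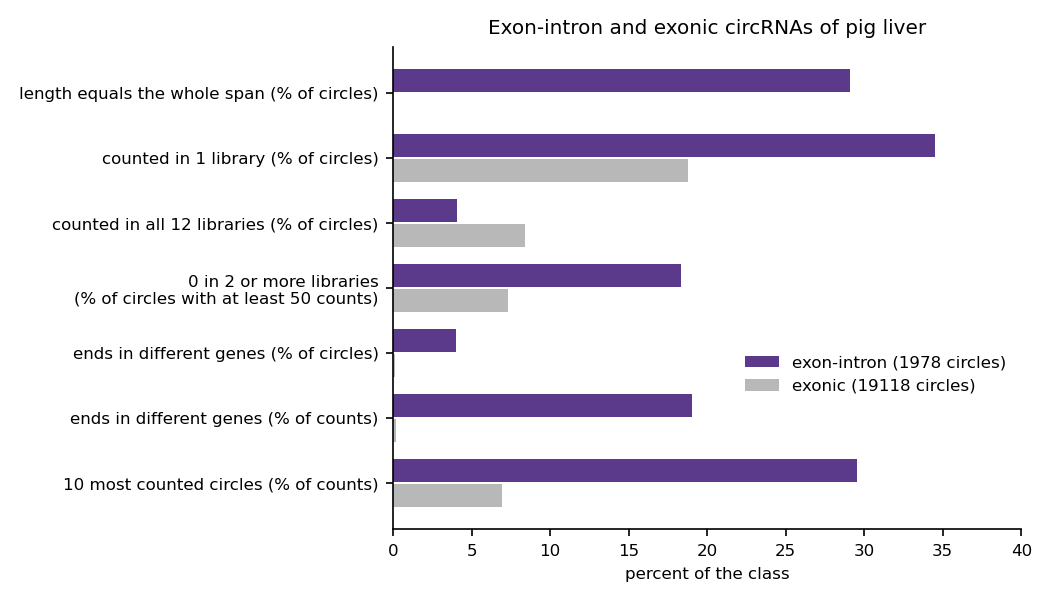
Percent of circles or of back-splice counts (horizontal axis) with each feature (rows), for the 1978 exon-intron circles (purple) above the 19118 exonic circles (grey). Exon-intron circles have the longer bar in every feature drawn except detection in all 12 libraries, where they stand at 4.044% and exonic circles at 8.411%. The bars for length equal to the whole span follow in part from the annotation type that defines the classes.

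Of the 12 circles of highest mean level, 10 were counted in every pig, and the circles of GSTO1 and LOC100513601 were high in some pigs and at 0 in 3 others. CHD9, a chromatin remodeller, gave novel_circ_003123 (chromosome 6, 31978481 to 31980100, minus strand), whose length and span are both 1620 bases. It had 81, 98 and 83 counts in Hezuo cold, 95, 70 and 106 in Hezuo room temperature, 72, 124 and 179 in Bama cold, and 157, 175 and 147 in Bama room temperature, and the groups overlapped in both cold comparisons. HIBADH, an enzyme of valine breakdown, gave novel_circ_021088 (chromosome 18, 44996263 to 45020744, plus strand) with 56, 87 and 89 counts in Hezuo cold, 94, 115 and 108 in Hezuo room temperature, 76, 69 and 105 in Bama cold, and 71, 54 and 94 in Bama room temperature. At room temperature the Hezuo pigs lay above the Bama pigs in CPM without overlap, at 1854, 2496 and 2301 against 1042, 990.9 and 1243 (log2 fold change 0.95 ± 0.28), and the edgeR adjusted p of 0.11 missed the threshold. Between cold and room temperature the Hezuo groups overlapped. The Bama pigs in the cold, at 1943, 1260 and 1903 CPM, lay above those at room temperature, and the circle was not called there. It made up part of the circular RNA of its gene, which also had 6 exonic circles with 4218 counts, while CHD9 had 10 exonic circles with 255 counts, fewer than the 1387 of its exon-intron circle.

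RREB1, a zinc finger transcription factor downstream of Ras signalling, gave novel_circ_021367 (chromosome 7, 4574943 to 4584896, plus strand), with 84, 67 and 67 counts in Hezuo cold, 73, 62 and 77 in Hezuo room temperature, 57, 94 and 88 in Bama cold, and 98, 64 and 105 in Bama room temperature. The sum was 936. In CPM the Bama pigs lay higher in the cold, at 1457, 1716 and 1595 against 1438, 1174 and 1389 at room temperature. The circle was not called there, and the groups overlapped in the other comparisons. ZEB1, a repressor of epithelial genes, gave novel_circ_000032 (chromosome 10, 42063516 to 42147610, plus strand), with 49 to 122 counts in every library and 901 in all. Its table length is 82534 bases of a span of 84095 bases, so nearly the whole intron sequence of the region is listed as part of the circle. MORC3, a nuclear ATPase that binds histones, gave novel_circ_010687 (chromosome 13, 200012507 to 200018021, plus strand), with 45, 74 and 56 counts in Hezuo cold, 66, 68 and 29 in Hezuo room temperature, 50, 61 and 112 in Bama cold, and 92, 45 and 60 in Bama room temperature. The groups overlapped. Its linear RNA was lower in Hezuo than in Bama averaged over temperatures, with a log2 fold change of -0.60 ± 0.13 (edgeR, Benjamini-Hochberg adjusted p = 0.0161), while its circle had -0.04 ± 0.21.

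Between 2 neighbouring genes of 1 family ran novel_circ_017517 (chromosome 2, 87877603 to 87929290, plus strand), from BHMT2 to BHMT, which encode methyltransferases that pass a methyl group to homocysteine. It had 33, 108 and 92 counts in Hezuo cold, 43, 82 and 62 in Hezuo room temperature, 76, 39 and 46 in Bama cold, and 86, 24 and 42 in Bama room temperature. All 4 groups overlapped. The linear RNA of BHMT was higher in Hezuo than in Bama averaged over temperatures (log2 fold change 0.63 ± 0.13, edgeR adjusted p = 0.013), and the circle had 0.65 ± 0.22 with an unadjusted p of 0.00283 that did not pass adjustment. Reads of such near-identical copies may be split or joined by the authors' counting, so the assignment to 1 copy is uncertain here and for every gene family below.

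Circles of a kinase and of 2 proteins that act on RNA were less even. TLK1, a kinase of chromatin assembly, gave novel_circ_015021 (chromosome 15, 77249916 to 77283482, minus strand), with 26, 26 and 39 counts in Hezuo cold, against 63, 58 and 62 in Hezuo room temperature, and 28, 24 and 19 in Bama cold, against 47, 44 and 78 in Bama room temperature. In CPM of back-splice counts, the Hezuo pigs in the cold lay below those at room temperature, while the Bama groups overlapped. Averaged over breeds the log2 fold change was -0.86 ± 0.24, with an unadjusted p of 0.000405 and an edgeR adjusted p of 0.114 that missed the threshold. TUT7, which adds uridines to RNA ends, gave novel_circ_005464 (chromosome 10, 29037750 to 29039234, plus strand), with 77, 33 and 39 counts in Hezuo cold, against 90, 73 and 134 in Hezuo room temperature, and 78, 64 and 12 in Bama cold, against 80, 160 and 194 in Bama room temperature. YBX1, an mRNA-binding protein with a cold shock domain, gave novel_circ_003391 (chromosome 6, 168716698 to 168717962, minus strand), with 1, 45 and 17 counts in Hezuo cold, against 28, 61 and 74 in Hezuo room temperature, and 21, 52 and 34 in Bama cold, against 48, 83 and 64 in Bama room temperature. Cold and room temperature overlapped for both circles in CPM. Averaged over breeds, their log2 fold changes in the cold were -0.96 ± 0.44 for the TUT7 circle and -0.89 ± 0.57 for the YBX1 circle, and neither passed adjustment.

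**Figure D2:**
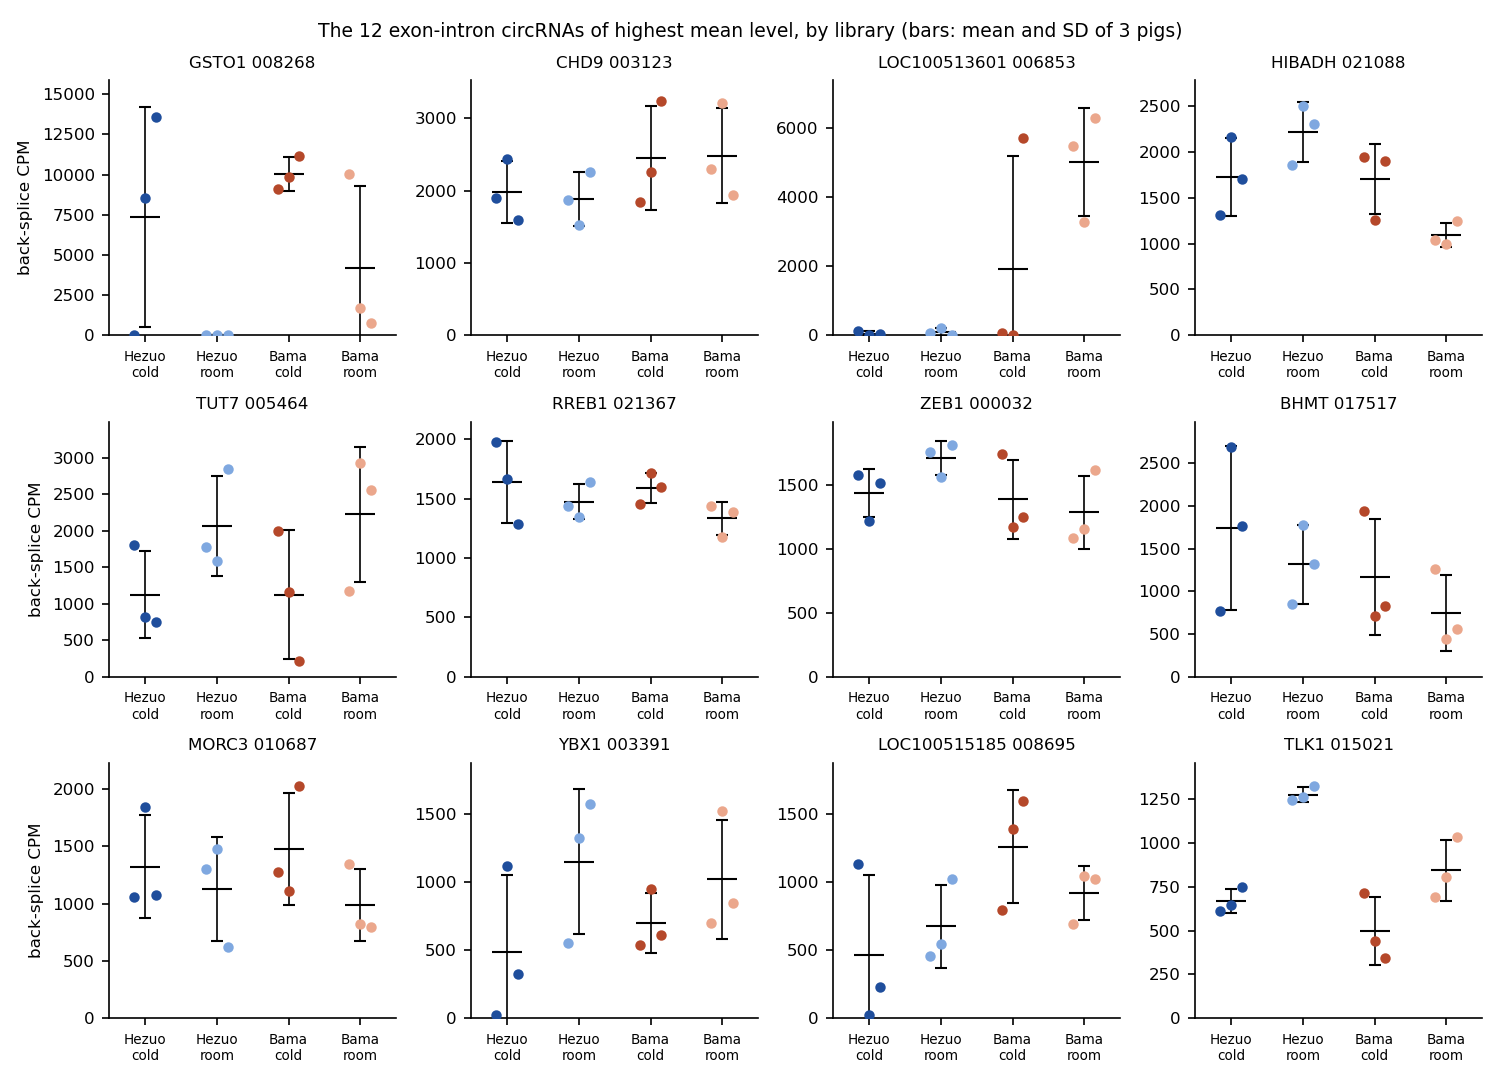
Back-splice CPM (vertical axis, linear, from 0) of the 12 exon-intron circles of highest mean level, 1 point per pig, for Hezuo cold, Hezuo room temperature, Bama cold and Bama room temperature from left to right; horizontal lines are means and vertical lines SD of 3 pigs, not drawn below 0. CHD9, RREB1 and ZEB1 are counted in all 12 pigs, whereas the GSTO1 circle is at 0 in 3 pigs and the LOC100513601 circle is high in 4 Bama pigs.

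The most counted circle of the class was at 0 in 3 pigs. GSTO1 encodes an omega class glutathione transferase, and novel_circ_008268 (chromosome 14, 115195774 to 115213464, plus strand) starts within CFAP43, a gene of cilia and flagella, and ends in GSTO1. It had 0, 343 and 708 counts in Hezuo cold, against 0, 2 and 0 in Hezuo room temperature, and 355, 538 and 617 in Bama cold, against 685, 91 and 58 in Bama room temperature. It was therefore near 0 in 4 of 6 Hezuo pigs and high in every Bama pig, with overlap between cold and room temperature in both breeds. The log2 fold change in the cold averaged over breeds was 5.04 ± 1.47 with an edgeR adjusted p of 0.46. The linear RNA of GSTO1 was between 12.21 and 31.7 CPM in all 12 pigs, so the circle's absence from single pigs did not go with absence of the gene's RNA, and GSTO1 had no exonic circle.

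A circle across the SLA class I locus, which encodes the pig's classical antigen-presenting molecules, behaved likewise. Its ends lie in LOC100513601 with SLA-1 and in SLA-2 (novel_circ_006853, chromosome 7, 22889305 to 22956239, plus strand), 66935 bases apart. Counts were 5, 0 and 2 in Hezuo cold, 3, 10 and 0 in Hezuo room temperature, 3, 0 and 315 in Bama cold, and 374, 179 and 476 in Bama room temperature. Every Hezuo pig and Bama cold replicates 1 and 2 thus had at most 10 counts, and the other 4 Bama pigs at least 179. The edgeR log2 fold change of Hezuo over Bama was -5.53 ± 1.46 with an adjusted p of 0.178, which missed the threshold.

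Such on-off circles are described here with a cutoff chosen after the values were seen. Of the 120 exon-intron circles with at least 50 counts, 22 (18.333%) were at 0 in 2 or more libraries, against 137 of 1879 exonic circles (7.291%). By position of the ends, 8 of the 13 such circles with ends in different genes were on-off, against 13 of the 96 with both ends in 1 gene. Of the 4 exonic circles with that many counts and ends in different genes, 3 were on-off as well. A few came from 1 or 2 pigs. The circle between CD207, which encodes the lectin langerin of Langerhans cells, and CLEC4F, a C-type lectin of Kupffer cells in the mouse, had 277 counts in Hezuo cold replicate 2, 1 in Bama room temperature replicate 3 and 0 in the other 10 pigs (novel_circ_016599, chromosome 3, 71670488 to 71685290, plus strand). The linear RNA of CD207 was at 63.04 CPM in that Hezuo pig and at most 0.7532 CPM in every other pig, and that of CLEC4F between 61.4 and 421.1 CPM.

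Another circle, named after its values were seen, has CD3G, a T cell receptor subunit, as its source gene in the table and ends in UBE4A, a ubiquitin ligase (novel_circ_021703, chromosome 9, 45619557 to 45668516, plus strand). It had 63 and 96 counts in Hezuo cold replicates 2 and 3 and 0 in the other 10 pigs. The 4 lymphocyte markers, none of them at 0, summed to 28.5 to 45.4 CPM in Hezuo cold, against 23.9 to 38.1 CPM in Hezuo room temperature, and to 53.9 to 112 CPM in Bama cold, against 45.2 to 122 CPM in Bama room temperature. The T cell gene CD3E was at 22.11 and 17.51 CPM in the pigs with the circle, at 3.658 to 6.955 CPM in the other 4 Hezuo pigs and at 10.06 to 33.14 CPM in Bama pigs. Those pigs were the highest in CD3E among Hezuo pigs and within the range of Bama pigs, and its part in the circle's counts was not tested.

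A pair of circles of 1 gene, named after their values were seen, were at 0 in the same pigs. PRDM2, a histone methyltransferase, gave novel_circ_015369 (chromosome 6, 73137415 to 73172671, plus strand), with 10, 8 and 14 counts in Hezuo cold, 9, 17 and 19 in Hezuo room temperature, 7, 0 and 13 in Bama cold, and 0, 3 and 10 in Bama room temperature. From the same start, novel_circ_000636 (end at 73166221) had 7, 6 and 3 counts in Hezuo cold, 18, 12 and 10 in Hezuo room temperature, 5, 0 and 11 in Bama cold, and 0, 5 and 2 in Bama room temperature. Both were at 0 in Bama cold replicate 2 and Bama room temperature replicate 1 and present in the other 10 pigs. The circle novel_circ_008735, with LOC110261669 as its source gene and both ends in LOC110261735, was also named after its values were seen (chromosome 7, 20896458 to 20904929, plus strand). It had 0, 14 and 0 counts in Hezuo cold, 2, 0 and 26 in Hezuo room temperature, 76, 28 and 0 in Bama cold, and 0, 0 and 0 in Bama room temperature. It was highest in Bama cold replicate 1 and at 0 in 7 pigs.

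Circles of 1 host often shared an end. Among end positions not shared with an exonic circle, 28 were used by 4 or more exon-intron circles. They included the start at position 68160992 of chromosome 7 in HEATR5A, used by 11 circles with 604 counts. HEATR5A, a HEAT repeat protein, had the most exon-intron circles of any host, 15 with 660 counts, beside 27 exonic circles with 202 counts. Its most counted circle, novel_circ_006335, had 25, 17 and 47 counts in Hezuo cold and 38, 39 and 41 in Hezuo room temperature. It had 22, 34 and 48 counts in Bama cold and 49, 25 and 50 in Bama room temperature. Cold and room temperature overlapped in both breeds. Set against the back-splice counts of each library, the Hezuo pigs lay above the Bama pigs at room temperature, and the circle was not called. All 8 exon-intron circles of NCOR1, a corepressor of nuclear receptors, started at position 59273100 of chromosome 12 and differed in their end alone, with 666 counts in all.

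The next hosts by number of circles were PSD3, an exchange factor for the GTPase ARF6, with 12 circles and 148 counts, C5orf34 with 11 and 111, ITGA9, the integrin alpha 9 subunit, with 9 and 551, and RDX, the membrane-actin linker radixin, with 9 and 95. The balance with exonic circles differed widely among them. PSD3 and ITGA9 had 4260 and 4019 exonic counts, far above their exon-intron counts, whereas C5orf34 had 32 exonic counts and RDX 34. RREB1 had 8 exon-intron circles with 1179 counts beside 4 exonic circles with 27 counts. Over the class, 906 hosts (75.437%) also had an exonic circle, and 444 exon-intron circles (22.447%) were the most counted circle of their host.

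Genes of hepatocyte function were frequent hosts. Of 45 tested genes of secreted liver proteins, 13 (28.9%) had an exon-intron circle, and of 51 tested genes of liver metabolism 13 (25.5%). Of all tested genes, counted once per gene name, 1137 of 13457 had one (8.45%). The same genes were also frequent hosts of exonic circles, at 86.7% and 78.4%, against 37.6% of all tested genes, and no test was made of either difference. ABCC2, the pump that exports bilirubin conjugates into bile, gave novel_circ_024108 with 13, 6 and 11 counts in Hezuo cold, 17, 8 and 8 in Hezuo room temperature, 4, 13 and 5 in Bama cold, and 13, 11 and 34 in Bama room temperature. The groups overlapped. TF, the plasma iron carrier transferrin, gave novel_circ_014216 with 88 counts in 11 pigs, and AMBP a circle with 33 counts. CPS1, the first enzyme of the urea cycle, gave one with 20 counts and KMO, of tryptophan breakdown, one with 16.

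As a class, exon-intron circles did not pass a test for a change with cold or breed. Their share of all back-splice counts was 5.411%, 7.833% and 7.06% in Hezuo cold, against 5.717%, 5.68% and 5.929% in Hezuo room temperature, and 6.992%, 6.8% and 7.519% in Bama cold, against 6.96%, 6.01% and 6.332% in Bama room temperature. Over both breeds the share averaged 6.936 ± 0.837% in the cold and 6.105 ± 0.48% at room temperature (SD, n = 6 each), and a two-sided exact permutation test gave p = 0.065, adjusted p = 0.3 over the 18 tests of 3 class measures in 6 comparisons. The highest shares were those of Hezuo cold replicate 2 and Bama cold replicate 3, and the lowest was that of Hezuo cold replicate 1, so the cold groups were not evenly higher.

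At room temperature the shares of Hezuo pigs lay below those of Bama pigs without overlap, at 5.776 ± 0.134% and 6.434 ± 0.483% (SD, n = 3 each, exact permutation p = 0.1, the smallest 3 against 3 allow). Without the 10 circles of highest mean level this direction was lost: the Hezuo shares were 4.625%, 4.404% and 4.556%, against 4.487%, 4.364% and 4.614% in Bama, and the mean difference 0.04 percentage points. Set against the gene counts of the same library, exon-intron circles had 117.639 ± 13.941 counts per 1000000 gene counts in Hezuo pigs and 147.087 ± 16.7 in Bama pigs (SD, n = 6 each; exact permutation p = 0.015, adjusted p = 0.27). That measure does not tell a difference of this class from one of all circRNAs. The log2 ratio to exonic counts was -3.788 ± 0.233 in Hezuo pigs and -3.663 ± 0.121 in Bama pigs (exact permutation p = 0.225, adjusted p = 0.385).

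**Figure D3:**
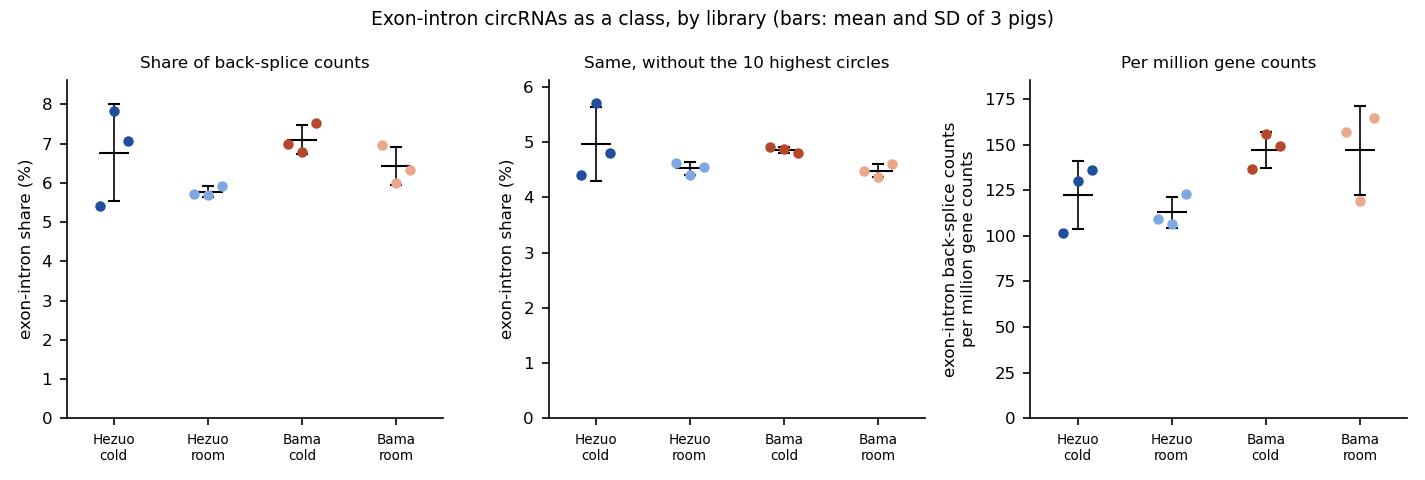
Exon-intron circles by pig: percent of all back-splice counts (left), the same without the 10 circles of highest mean level (middle) and counts per 1000000 gene counts (right), for Hezuo cold, Hezuo room temperature, Bama cold and Bama room temperature; lines are means and SD of 3 pigs, and axes start at 0. The share spreads between 5.411% and 7.833% in Hezuo pigs in the cold, and the gap between breeds at room temperature closes when the 10 highest circles are left out.

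Of single circles, 521 had counts enough to be tested (3 or more libraries with 2 or more counts, and a total of 10 or more) within a fit of 9032 circRNAs, and 1457 were not tested. A circle was called where the edgeR quasi-likelihood p, adjusted by Benjamini-Hochberg over all 9032, was below 0.05. In Hezuo pigs in the cold edgeR called 2 of 521 (0.384%), 1 higher and 1 lower, against 0.0886% of all circRNAs tested, and in Bama pigs in the cold it called 2 (0.384%), both higher, against 0.155%. Averaged over breeds it again called 2, both higher, against a background of 0.199%. At unadjusted p below 0.05 there were 41 (7.87%), 46 (8.83%) and 56 (10.7%) circles in these 3 comparisons, against 5.79%, 6.53% and 7.86% of all circRNAs tested. These are counts of a few circles, too small to set apart from their background.

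In Bama pigs both cold-induced circles came with more linear RNA of their host. SLC38A1 encodes a transporter of glutamine and other neutral amino acids, and it had no exonic circle. Its circle novel_circ_018059 (chromosome 5, 77049090 to 77058522, minus strand) has a table length of 388 bases in a span of 9433 and had 42, 30 and 34 counts in Bama cold, against 7, 6 and 13 in Bama room temperature. The Bama groups did not overlap, the log2 fold change was 2.46 ± 0.47 (edgeR adjusted p = 0.000305), and the call was kept in all 12 fits that left out 1 library. In Hezuo pigs the counts were 7, 16 and 17 in the cold, against 27, 15 and 12 at room temperature, with overlap. The breeds differed in this response by -2.78 ± 0.66 (edgeR adjusted p = 0.0314). It was kept only without Bama cold replicate 2 or without Hezuo room temperature replicate 3 and lost in the other fits of that kind, with adjusted p up to 0.484, and with DESeq2 (0.328).

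Linear SLC38A1 RNA was at 285.2, 209.9 and 206.6 CPM in Bama cold, against 33.99, 79.38 and 19.49 CPM in Bama room temperature, a log2 fold change of 2.21 ± 0.52 with an edgeR adjusted p of 0.083. The ratio of circle to linear RNA accordingly moved little, by -0.07 ± 0.79 on the log2 scale (limma). Across pigs the circle was high where the gene was high in Bama, and the difference in the ratio was smaller than its error. In Hezuo pigs linear SLC38A1 RNA overlapped, at 132.9, 327.7 and 274.3 CPM in the cold against 229.5, 124.9 and 126.6 CPM at room temperature.

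MYO16, an unconventional myosin, gave novel_circ_007264 (chromosome 11, 75862629 to 75912101, plus strand), of 479 bases in a span of 49473. It had 32, 22 and 35 counts in Bama cold, against 6, 8 and 14 in Bama room temperature, and 7, 7 and 8 in Hezuo cold, against 5, 9 and 12 in Hezuo room temperature. The Bama groups did not overlap, with a log2 fold change of 2.09 ± 0.52 (edgeR adjusted p = 0.0412). Linear MYO16 RNA rose in the same pigs, to 58.38, 51.72 and 50.9 CPM in Bama cold, against 14.18, 19.07 and 18.84 CPM in Bama room temperature (1.48 ± 0.21, adjusted p = 0.0101), and the circular-to-linear ratio had 0.56 ± 0.65. The call on the circle was kept in 6 of 12 fits that left out 1 library, and it was lost without Hezuo room temperature replicate 3, Bama cold replicates 1 or 3, or any Bama room temperature pig, where adjusted p reached 0.456. In Hezuo pigs linear MYO16 RNA was also higher in the cold, at 34.58, 39.9 and 46.96 CPM against 18.93, 34.17 and 25.96 CPM. The circle overlapped between those Hezuo groups, so there it did not go with the linear RNA. MYO16 had 8 exon-intron circles, 6 of them from the same start.

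In Hezuo pigs in the cold 1 circle was called higher and 1 lower. Between the P450 gene CYP2C33 and its neighbour LOC100739741 lies novel_circ_021585 (chromosome 14, 111253510 to 111282469, minus strand). Its counts were 2, 10 and 14 in Hezuo cold, against 0, 1 and 0 in Hezuo room temperature, and 7, 21 and 0 in Bama cold, against 24, 25 and 7 in Bama room temperature. The Hezuo groups did not overlap, and their 26 and 1 counts gave a ratio of 27.7 (counting interval 4.55 to 1140; edgeR adjusted p = 0.0254). The call was lost without Hezuo cold replicates 2 or 3 or Hezuo room temperature replicates 1 or 3, with adjusted p of 0.179, 0.328, 0.251 and 0.301. The breeds differed in this response by 5.06 ± 1.21 on the log2 scale (adjusted p = 0.0314). This was kept in 4 of 12 such fits (without Hezuo cold replicate 1, Hezuo room temperature replicate 2, Bama cold replicate 2 or Bama room temperature replicate 3) and had adjusted p up to 0.366 in the others. DESeq2 called neither (adjusted p = 1.0 for both).

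Linear CYP2C33 RNA was also higher in every Hezuo pig in the cold than in every Hezuo pig at room temperature, without passing the test (log2 fold change 0.86 ± 0.32, edgeR adjusted p = 0.227). It was at 5303, 6167 and 6510 CPM in Hezuo cold, against 3963, 2782 and 2769 CPM in Hezuo room temperature, and at 2664, 2115 and 2440 CPM in Bama cold, against 2977, 3785 and 1458 CPM in Bama room temperature. At room temperature the circle had 1 count in Hezuo pigs and 56 in Bama pigs, a ratio of 40.6 (6.99 to 1630) on the Bama side, called by edgeR (adjusted p = 0.00012) and in all 12 leave-one-out fits. A neighbouring circle with other ends in the same genes went the other way: novel_circ_019831 had 4, 2 and 15 counts in Hezuo cold, 7, 13 and 3 in Hezuo room temperature, 0, 0 and 1 in Bama cold, and 1, 1 and 0 in Bama room temperature. Its 44 counts in Hezuo pigs and 3 in Bama pigs gave a ratio of 18.3 (5.86 to 92; edgeR adjusted p = 0.00116). Dropping Hezuo cold replicate 3 ended the call (adjusted p = 0.086). The linear RNA of CYP2C33 was higher in Hezuo pigs averaged over temperatures (log2 fold change 1.02 ± 0.23, adjusted p = 0.0174).

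ZNF644, a zinc finger protein, gave the circle that was lower in Hezuo pigs in the cold, novel_circ_019213 (chromosome 4, 125780952 to 125783720, plus strand), whose length and span are both 2769 bases. It had 10, 3 and 6 counts in Hezuo cold, against 29, 19 and 40 in Hezuo room temperature, and 10, 23 and 13 in Bama cold, against 7, 19 and 28 in Bama room temperature. The Hezuo groups did not overlap and the Bama groups did. The log2 fold change in Hezuo was -2.10 ± 0.51 (edgeR adjusted p = 0.0464), while its linear RNA had -0.07 ± 0.14. DESeq2 did not call it (adjusted p = 0.94). This call stood close to the threshold: it was kept in 1 of 12 fits that left out 1 library, the fit without Hezuo cold replicate 1, and adjusted p reached 0.769 without Hezuo room temperature replicate 3.

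Averaged over breeds, both called circles were higher in the cold. An uncharacterised long non-coding gene, LOC102158108, gave novel_circ_020183 (chromosome 6, 14924769 to 14926563, minus strand), with 2, 20 and 9 counts in Hezuo cold, against 1, 0 and 0 in Hezuo room temperature, and 5, 8 and 2 in Bama cold, against 0, 0 and 0 in Bama room temperature. Every pig in the cold had more counts than every pig of its breed at room temperature. The 46 counts in the cold and 1 at room temperature gave a ratio of 55.4 (9.46 to 2230; edgeR adjusted p = 0.000133). The call was kept in all 12 leave-one-out fits. DESeq2 gave the circle a log2 fold change of 5.13 and no adjusted p, so it was not called there. Its source gene was listed at 0 CPM in every pig.

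FOXP1, a forkhead transcription factor, gave novel_circ_023511 (chromosome 13, 52863743 to 52876892, minus strand), with 4, 4 and 19 counts in Hezuo cold, against 0, 4 and 4 in Hezuo room temperature, and 24, 42 and 26 in Bama cold, against 13, 8 and 16 in Bama room temperature. In CPM the cold and room temperature groups did not overlap in either breed. The Hezuo groups lay close, at 93.98, 99.59 and 364 CPM in the cold against 0, 86.82 and 85.21 CPM at room temperature. The log2 fold change in the cold averaged over breeds was 1.73 ± 0.42 (edgeR adjusted p = 0.0196), and that of Hezuo over Bama was -1.71 ± 0.42 (adjusted p = 0.00566). Without Hezuo cold replicate 3 the cold value was 1.20 with adjusted p = 0.573, and it also missed the threshold without Hezuo room temperature replicate 1 (0.206), Bama cold replicates 1 (0.0509) or 2 (0.116) or Bama room temperature replicate 2 (0.0649). The breed call was lost without Hezuo room temperature replicate 1 (0.0684).

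**Figure D4:**
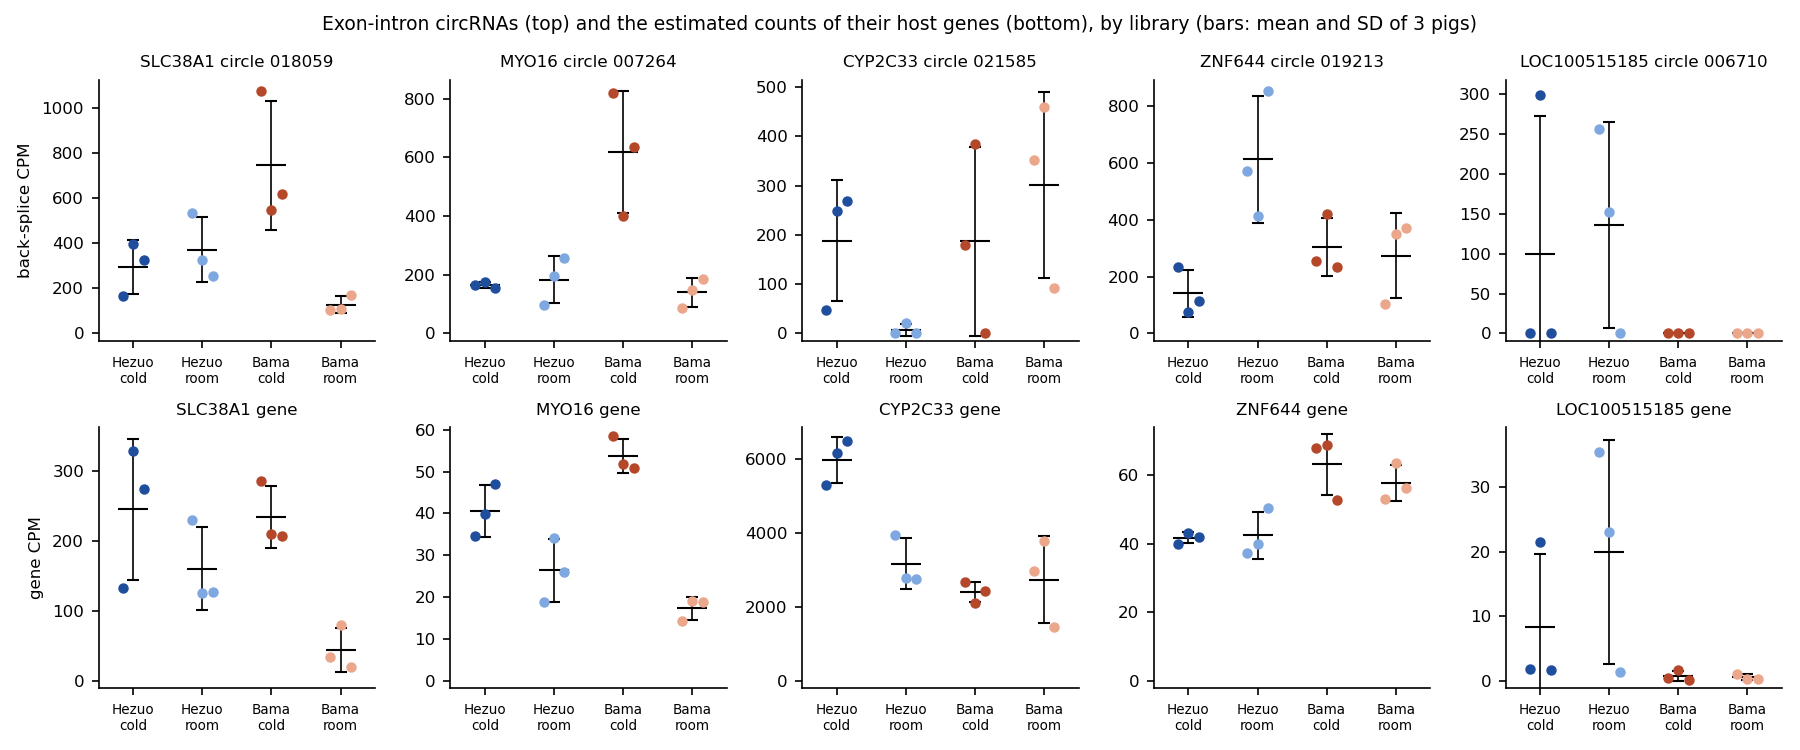
Back-splice CPM of 5 exon-intron circles (top) and CPM of their host genes (bottom), 1 point per pig, groups from left to right Hezuo cold, Hezuo room temperature, Bama cold and Bama room temperature; lines are means and SD of 3 pigs. For SLC38A1 and MYO16 the Bama cold pigs are above the Bama room temperature pigs in both circle and gene, while the ZNF644 circle is lower in Hezuo cold than in Hezuo room temperature and its gene is level.

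Breed gave more calls than cold. Comparing Hezuo with Bama, edgeR called 10 of 521 circles at room temperature (1.92%, 4 higher and 6 lower), against 0.454% of all circRNAs tested. In the cold it called 7 (1.34%, 3 higher and 4 lower), against 0.421%, and averaged over temperatures 17 (3.26%, 9 higher and 8 lower), against 1.28%. The share of called exon-intron circles stood above that of all circRNAs in each, and the comparisons share their pigs. Calls gathered in circles that join different genes: averaged over temperatures 7 of the 24 tested (29.2%) were called, against 5 of the 457 with both ends in 1 gene (1.09%) and 4 of 32 with 1 end outside genes (12.5%), a split made after the calls were seen.

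Of the circles called lower in Hezuo, 4 that join genes of 1 family or locus were at 0 or 1 count over all 6 Hezuo pigs. Between LOC110261488 and LOC110261480, both pseudogenes in RefSeq, lies novel_circ_005147 (chromosome 7, 20720396 to 20737650, minus strand), with 49, 20 and 17 counts in Bama cold and 52, 14 and 64 in Bama room temperature, and 0 in all 6 Hezuo pigs. Set against 3 counts over the group, the limit that 0 counts allow, it was at least 57.8-fold lower in Hezuo averaged over temperatures (edgeR adjusted p = 1.69e-28), and the call was kept in every fit that left out 1 library. The linear RNA of its source gene was lower in Hezuo by much less (log2 fold change -1.43 ± 0.39, adjusted p = 0.0371), and the circular-to-linear ratio was called as well (limma, adjusted p = 7.34e-06).

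A circle from SERPINA3-2 to LOC396685, acute-phase serine protease inhibitors of the serpin A3 group, was likewise at 0 in all 6 Hezuo pigs (novel_circ_015039, chromosome 7, 115947803 to 115983170, minus strand). It had 13, 24 and 0 counts in Bama cold and 57, 25 and 35 in Bama room temperature, at least 41.2-fold lower in Hezuo (edgeR adjusted p = 5.57e-17). Linear LOC396685 RNA was abundant in both breeds, between 4073 and 14560 CPM in Hezuo pigs and between 7191 and 13280 CPM in Bama pigs. In the cold the breeds overlapped in this linear RNA. At room temperature they did not, and it was lower in Hezuo, at 6033, 4586 and 4073 CPM against 10100, 10900 and 7191 CPM in Bama.

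Among glutathione transferases of the mu class, which conjugate toxins, novel_circ_021897 runs from LOC106510200 to LOC110260348 (chromosome 4, 110411073 to 110431246, minus strand). Its counts were 1, 26 and 31 in Bama cold and 34, 0 and 22 in Bama room temperature, and 0 in all 6 Hezuo pigs. It was at least 30.5-fold lower in Hezuo (edgeR adjusted p = 2.13e-12). The linear RNA of LOC110260348 went the other way, with 1.10 on the log2 scale for Hezuo over Bama (adjusted p = 0.0483). At room temperature this gene was at 342.9, 471.7 and 342.4 CPM in Hezuo, against 185, 84.17 and 106.5 CPM in Bama. In the cold the breeds overlapped in it, at 354, 338.1 and 266.2 CPM against 538.2, 301.5 and 101.6 CPM. Circle and gene thus lay in opposite directions at room temperature, while in the cold the gene did not separate the breeds.

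In the CYP3A cluster, whose enzymes oxidise drugs and steroids, novel_circ_010995 joins CYP3A22 and CYP3A46 (chromosome 3, 6665117 to 6709547, minus strand). It had 0, 1 and 0 counts in Hezuo cold, 0, 0 and 0 in Hezuo room temperature, 6, 9 and 8 in Bama cold, and 17, 5 and 27 in Bama room temperature. Hezuo and Bama pigs did not overlap, and 1 count in Hezuo against 72 in Bama gave a ratio of 57.8 (10 to 2310) on the Bama side (edgeR adjusted p = 2.65e-06). These 4 circles were called in all 12 leave-one-out fits of the average over temperatures, though at room temperature and in the cold DESeq2 did not call the LOC396685 circle (adjusted p = 0.0993 and 0.245) or the glutathione transferase circle (0.535 and 0.355).

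Near SLC17A4, an organic anion and urate transporter, novel_circ_014690 was lower in Hezuo without being absent, with 3, 12 and 12 counts in Hezuo cold, 4, 0 and 16 in Hezuo room temperature, 11, 24 and 17 in Bama cold, and 30, 27 and 51 in Bama room temperature. The breeds did not overlap at room temperature (log2 fold change -1.99 ± 0.52, edgeR adjusted p = 0.0292). The call was lost without Hezuo room temperature replicates 1 or 2 (adjusted p = 0.363 and 0.486) or Bama room temperature replicate 3 (0.335), and with DESeq2 (0.263). CEP112, a centrosomal protein gene, gave novel_circ_018946, with 0, 0 and 0 counts in Hezuo cold, 1, 2 and 0 in Hezuo room temperature, 0, 0 and 17 in Bama cold, and 8, 1 and 10 in Bama room temperature. Its 3 counts in Hezuo pigs and 36 in Bama pigs gave a ratio of 9.63 on the Bama side (3.04 to 48.9; edgeR adjusted p = 0.0315). The breeds overlapped. The call rested in part on Bama cold replicate 3, without which the log2 value was -1.07 and adjusted p 1.0, and was kept in 4 of 12 leave-one-out fits.

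Of the 9 circles called higher in Hezuo averaged over temperatures, 3 had both ends in 1 gene, 3 had 1 end outside genes, 1 had both ends outside and 2 had ends in different genes. SPATA9, a gene named for its expression in spermatogenesis, gave novel_circ_007205 (chromosome 2, 102234626 to 102264179, minus strand), with 4, 11 and 10 counts in Hezuo cold, 1, 13 and 4 in Hezuo room temperature and 0 in all 6 Bama pigs. It was at least 17.9-fold higher in Hezuo averaged over temperatures (edgeR adjusted p = 9.43e-06), kept in all 12 leave-one-out fits. At each temperature alone it was called as well, but 6 and 7 of 12 such fits kept it, with adjusted p up to 0.639 without Hezuo room temperature replicate 2. DESeq2 did not call it at room temperature (adjusted p = 0.0737) and gave it no adjusted p in the cold.

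DPYS, dihydropyrimidinase of pyrimidine breakdown, gave novel_circ_010916 (chromosome 4, 32827175 to 32833310, plus strand), with 10, 16 and 0 counts in Hezuo cold, 0, 17 and 19 in Hezuo room temperature, 2, 1 and 0 in Bama cold, and 1, 0 and 0 in Bama room temperature. It was at 0 in Hezuo cold replicate 3 and Hezuo room temperature replicate 1, so the breeds overlapped. The log2 fold change of Hezuo over Bama averaged over temperatures was 4.09 ± 0.72 (edgeR adjusted p = 5.85e-06), and linear DPYS RNA was higher too (1.17 ± 0.19, adjusted p = 0.00597). At room temperature the call was lost without Hezuo room temperature replicate 3 (adjusted p = 0.0586) and with DESeq2 (adjusted p = 0.39).

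ITGA9 gave a circle counted in every pig at 20 counts or more and another that was higher in Hezuo. The first, novel_circ_018489, had 20 to 50 counts. The other, novel_circ_002717 (chromosome 13, 22311956 to 22335113, plus strand), had 16, 12 and 13 counts in Hezuo cold, 11, 7 and 3 in Hezuo room temperature, 1, 2 and 0 in Bama cold, and 2, 3 and 3 in Bama room temperature. In the cold the breeds did not overlap, with 41 counts in Hezuo and 3 in Bama (ratio 15.1, 4.82 to 76.2; edgeR adjusted p = 0.0152). That call was lost without Hezuo cold replicate 1 (0.0894) or Bama cold replicates 1 (0.0724) or 3 (0.168). Averaged over temperatures the log2 fold change was 2.72 ± 0.62 (adjusted p = 0.00195), against 0.11 ± 0.15 for linear ITGA9 RNA.

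**Figure D5:**
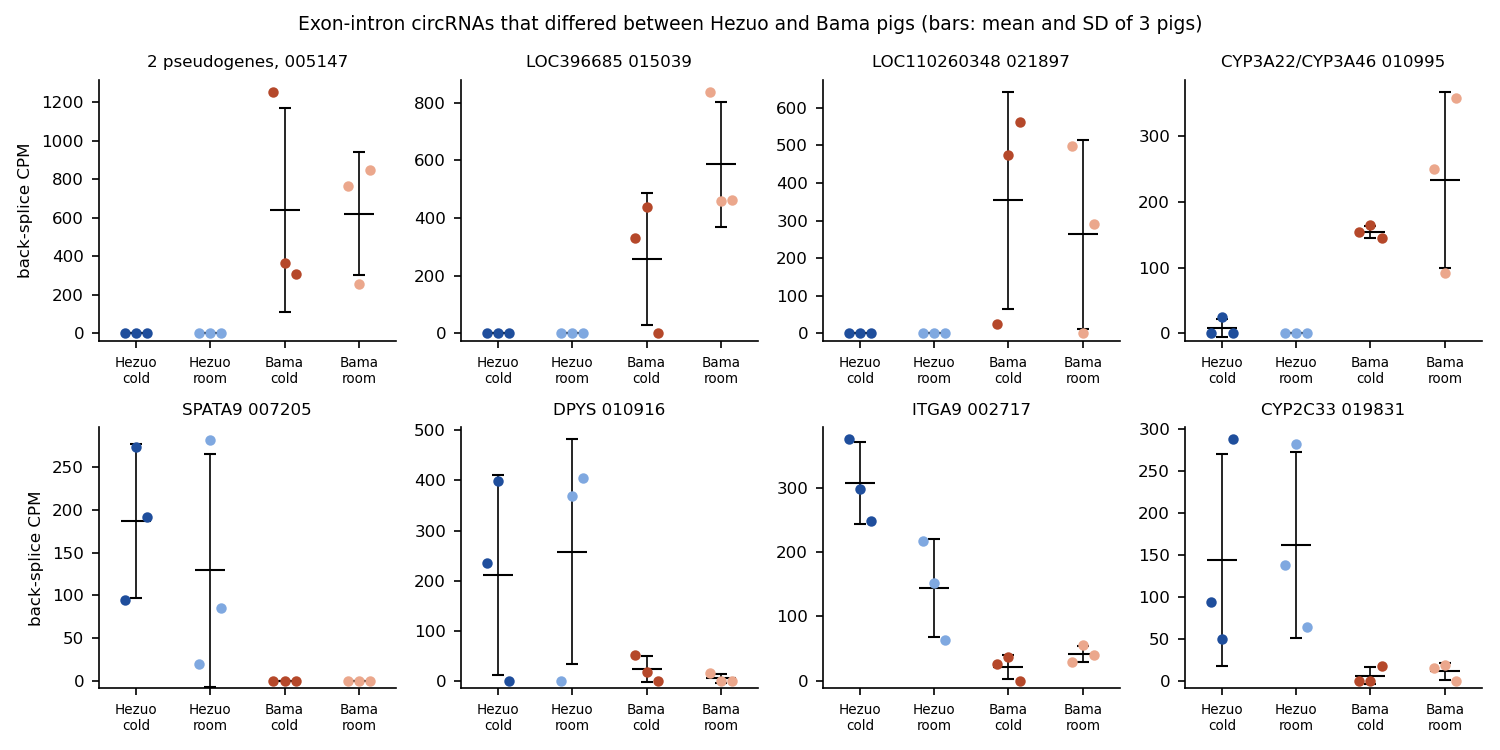
Back-splice CPM (vertical axis) of 8 exon-intron circles called between the breeds, 1 point per pig, groups from left to right Hezuo cold, Hezuo room temperature, Bama cold and Bama room temperature; lines are means and SD of 3 pigs. In the top row, circles between pseudogenes, serpin, glutathione transferase and CYP3A genes are at or near 0 in all 6 Hezuo pigs, and in the bottom row circles of SPATA9, DPYS, ITGA9 and CYP2C33 are higher in Hezuo, with 0 counts of the SPATA9 circle in Bama.

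MT1A encodes a metal-binding metallothionein, and novel_circ_012581 at its locus had 5, 12 and 4 counts in Hezuo cold, 6, 2 and 13 in Hezuo room temperature, 1, 0 and 6 in Bama cold and 0, 0 and 0 in Bama room temperature. At room temperature it was at least 9.66-fold higher in Hezuo (edgeR adjusted p = 0.0107), and MT1A itself was higher there too (1.18 ± 0.20, adjusted p = 0.0311). The call on the circle was lost without Hezuo room temperature replicate 3 (0.296) or without Bama room temperature replicates 1 (0.105), 2 (0.09) or 3 (0.123). A circle in the gene LOC110256043, novel_circ_005300, was called in the cold and in the average, with 0, 51 and 2 counts in Hezuo cold, 0, 4 and 1 in Hezuo room temperature, 0, 0 and 1 in Bama cold and 0, 0 and 0 in Bama room temperature. Most of its counts were in Hezuo cold replicate 2, and its ratio of 58.6 in the cold (10.1 to 2360; edgeR adjusted p = 0.000269) was not called by DESeq2 (0.555). The other 2 circles called higher in Hezuo averaged over temperatures have as source genes in the table CYP3A39, with both ends outside RefSeq genes (novel_circ_018778, 101 counts in Hezuo pigs and 40 in Bama pigs; edgeR log2 fold change 1.59 ± 0.41, adjusted p = 0.013), and LOC100152150, with 1 end outside genes (novel_circ_009779, 43 counts in Hezuo pigs and 4 in Bama pigs; 3.63 ± 0.82, adjusted p = 0.00154).

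At the SLA locus, a pair of circles with near ends differed in the cold in which breed had the more counts. The pair novel_circ_022820 (chromosome 7, 22938701 to 22956239, plus strand) and novel_circ_006468 (22939196 to 22956689) starts and ends close to each other. In the cold the first had 0, 0 and 0 counts in Hezuo and 19, 13 and 0 in Bama, at least 9.65-fold lower in Hezuo (edgeR adjusted p = 0.00557), and the second had 30, 66 and 66 in Hezuo and 0, 1 and 0 in Bama. At room temperature the first was counted in both breeds, with 0, 2 and 6 counts in Hezuo and 1, 0 and 7 in Bama, in overlapping groups. The call on the first was lost without Hezuo cold replicates 1 (0.0553) or 3 (0.0685) or Bama cold replicate 1 (0.269). The second was at 40, 0 and 0 counts in Hezuo room temperature and 0 in all 3 Bama pigs there, its edgeR adjusted p averaged over temperatures was 0.205, and its circular-to-linear ratio was called, at 4.73 ± 0.90 on the log2 scale (limma adjusted p = 0.0147). SLA class I genes differ between pigs in sequence and number, and these circles are assigned to copies with that uncertainty.

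The acyltransferase locus on chromosome 1 showed a similar mix. LOC100515185 and LOC110255172 are acyl-CoA amino acid N-acyltransferase genes, a family that joins bile acids or fatty acids to amino acids. The circle novel_circ_008695 (242982046 to 243033878, minus strand) joins them and had 48, 1 and 12 counts in Hezuo cold, 23, 25 and 48 in Hezuo room temperature, 31, 76 and 88 in Bama cold, and 47, 57 and 77 in Bama room temperature. The groups overlapped. Of nearly the same span, 51837 bases against 51833, novel_circ_006710 (242983879 to 243035715) had 0, 12 and 0 counts in Hezuo cold, 13, 7 and 0 in Hezuo room temperature and 0 in all 6 Bama pigs. It was at least 13.3-fold higher in Hezuo averaged over temperatures (edgeR adjusted p = 0.000435). The 3 Hezuo pigs with that circle were those with 21.45, 35.49 and 23.14 CPM of linear LOC100515185 RNA, while the other 3 Hezuo pigs had 1.278 to 1.762 CPM and the Bama pigs 0.1441 to 1.674 CPM. The room temperature call (edgeR adjusted p = 0.0466) was lost without any 1 of the Bama room temperature pigs (0.285, 0.266 and 0.325). DESeq2 gave the circle no adjusted p at room temperature.

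Set against the linear RNA of the host, fewer circles were called with a prior count of 0.5. With 2, as many were called between breeds at room temperature, and fewer in the cold and averaged over temperatures. The limma test of circle over host, run for 514 circles, called 4 between breeds at room temperature (0.778%, 1 higher and 3 lower in Hezuo, background 0.102%), 1 in the cold (0.195%, background 0.0226%) and 9 averaged over temperatures (1.75%, 2 higher and 7 lower, background 0.283%). With a prior count of 2 it called 10, 4 and 16, against the 10, 7 and 17 called on the circles' own counts. The share of all circRNAs called with that prior was not computed, so these 3 counts have no background. In the cold comparisons it called 0 in Hezuo, in Bama and averaged over breeds, with 44 (8.56%), 37 (7.2%) and 49 (9.53%) at unadjusted p below 0.05, against 6.08%, 5.42% and 6.5% of all circRNAs tested. No other tool was run on the ratio. Some circles were called on the ratio but not on their own counts. The LOC102164585 circle novel_circ_013290, from a transporter gene of the SLC22A9 kind, had 0, 0 and 0 counts in Hezuo cold, 0, 1 and 1 in Hezuo room temperature, 0, 1 and 3 in Bama cold and 3, 4 and 3 in Bama room temperature. Its host RNA was higher in Hezuo by 2.31 ± 0.49 on the log2 scale (edgeR adjusted p = 0.0149), and the circular-to-linear ratio had -3.79 ± 0.56 (limma adjusted p = 0.00137). BBS12, a chaperonin-like protein of the primary cilium, gave novel_circ_006366, with 0, 0 and 0 counts in Hezuo cold, 2, 3 and 5 in Hezuo room temperature, 0, 1 and 0 in Bama cold and 0, 0 and 0 in Bama room temperature. At room temperature its ratio for Hezuo over Bama had 3.77 ± 0.67 (adjusted p = 0.0156). In circles at 0 such a ratio depends on the 0.5 counts added to each value.

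For the hosts' linear RNA, edgeR called 3 of 1137 tested hosts in Hezuo in the cold (0.264%, background 0.281% of all genes), 11 in Bama in the cold (0.967%, background 0.924%), and 44 averaged over breeds (3.87%, background 3.89%). Between the breeds it called 15 at room temperature (1.32%, background 1.08%), 39 in the cold (3.43%, background 2.76%) and 153 averaged over temperatures (13.5%, background 12%). Hosts of exon-intron circles were thus called about as often as other genes. The breeds' difference in the cold response was called in 2 circles (0.384%, background 0.0886%), those of SLC38A1 and CYP2C33, and in 0 hosts (background 0.00739%), with 98 hosts (8.62%) at unadjusted p below 0.05, against 8.02% of all genes. DESeq2 called 15 of 1137 hosts (1.32%), against 1.03% of all genes.

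Few of the genes that make, bind or export circles were called in the same libraries. Of 4 partners of exon-intron circles in human cells, the U1 proteins SNRNP70, SNRPA and SNRPC and the polymerase II subunit POLR2A, edgeR called 0 in every comparison, with 0 at unadjusted p below 0.05, and median log2 fold changes between -0.06 and 0.03, near those of all genes. Of 22 regulators of back-splicing 1 was called between breeds averaged over temperatures, against 12% of all genes: ADAR, which edits paired inverted repeats and in human cells limits circle formation, was lower in Hezuo (-0.60 ± 0.12, adjusted p = 0.0117). ADAR was also the 1 regulator called between breeds in the cold (-0.92 ± 0.17, adjusted p = 0.0222; background 2.76%). Of 6 tested genes of circle export DDX39B, a helicase that exports long circles in human cells, was lower in Hezuo (-0.26 ± 0.07, adjusted p = 0.0408). None of these lists, nor a list of 8 genes of lariat and circle turnover, had a call in the cold within either breed by edgeR, where 2 of the 40 listed genes tested in Hezuo and 3 in Bama had an unadjusted p below 0.05, against 15.6% of all genes in Hezuo and 15.8% in Bama.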

How the data were processed

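Liver RNA of 12 pigs was depleted of ribosomal RNA and sequenced strand-specifically, per the labels' protocols, and trimmed with fastp, per the submitters' processing notes. Build, aligner and circRNA caller are not given in the sources used, and circle coordinates are those of the deposited table. The authors deposited whole back-splice counts per circRNA beside RPM values, and estimated counts per gene, rounded here to whole numbers, beside FPKM values. The deposited RPM and FPKM columns were not used in any test, and there were 0 other columns of samples. Circle lengths, types and source genes are the authors' deposited annotation.

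The file named the hosts of 1668 circles, Ensembl names were added for 95 and RefSeq names (Sscrofa11.1) for 93, and 122 had none. RefSeq was used for names and neighbours only. Of 18634 exonic circles whose host RefSeq holds, 98.331% lie inside it there.

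Back-splice counts were tested with edgeR 4.0.16 in R 4.3.3 (quasi-likelihood, TMM scaling, 4 groups in 1 fit of 12 libraries, 8 residual degrees of freedom) for circRNAs with a total of 10 counts or more and 2 or more counts in 3 libraries or more. Host genes were tested likewise over 13532 genes. The circular-to-linear ratio is log2 CPM of the circle minus log2 CPM of its host, each with 0.5 counts added, tested with limma 3.58.1. Fold changes are log2 with standard errors, and p-values were adjusted by Benjamini-Hochberg over all features and called below 0.05. The 3 class measures were compared by two-sided exact permutation tests, adjusted over 18 tests, whose smallest p is 0.1 within and 0.005 across groups. Against a group at 0, folds are lower bounds from 3 counts over the group, and with 1 to 3 counts the ratio of counts per depth is given with a 95% counting interval, which covers counting error only. Fits were tested on simulated data. DESeq2 1.42.0, other scalings, filters and priors, a pig-number block and leaving out each library were tried. The numbers pair no animals: same-numbered libraries had correlations of -0.0268 to 0.0344. Figures used Python 3.11.15 with matplotlib 3.10.9.

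The circles and lists were chosen with earlier results of these data known. Circles named are the 12 of highest mean level, those called per comparison (at most 8 per direction), up to 5 per direction by ratio, those of the 5 hosts with most circles and the 5 of highest mean level with no exonic circle of their host. Others named were chosen after their values were seen. The result of 1 listed gene is not reported here.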

Additional observations from a re-analysis of the deposited data

Results flagged for a closer look

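Responses to cold that differed between the breeds, by a test of the difference itself over 521 exon-intron circles, stood out for 2 circles. These were 0.384% of the circles, against 0.0886% of all circRNAs tested. For the SLC38A1 circle novel_circ_018059 the response in Hezuo minus that in Bama was -2.78 on the log2 scale (edgeR adjusted p = 0.0314). The responses were -0.32 ± 0.47 in Hezuo and 2.46 ± 0.47 in Bama. The CYP2C33 circle novel_circ_021585 responded by 5.06 more in Hezuo (edgeR adjusted p = 0.0314), with 26 counts in the cold and 1 at room temperature in Hezuo, and 28 counts in the cold and 56 at room temperature in Bama. Of 12 fits that left out 1 library, 2 kept the SLC38A1 difference and 4 the CYP2C33 difference. Neither was called by DESeq2, or by edgeR with gene-table scaling or with no filter.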

How the results depend on the processing

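Counts of exon-intron circles called by edgeR moved by more than 1.5 times in these cases. In Hezuo in the cold 2 became 1 with DESeq2, with RLE scaling, with gene-table scaling and with no filter. In Bama in the cold 2 became 1 with gene-table scaling, no filter and the replicate block, and 4 with the 2 groups alone. For the breed difference in the cold response 2 became 0 with DESeq2, gene-table scaling and no filter, and 1 with the block. Averaged over breeds 2 became 1 with no filter. DESeq2 called 6 at room temperature, where edgeR called 10, and 2 in the cold, where edgeR called 7. The block by pig number pairs no animals, so a call lost under that pairing does not measure a weaker effect. Ratio calls rose to 10 at room temperature, 4 in the cold and 16 averaged with a prior count of 2, and were 2 and 3 at each temperature with at least 30 counts. The share of all circRNAs called was not computed for these settings. DESeq2 called 53, 63, 96, 127, 15, 117 and 242 hosts, in the order cold in Hezuo, cold in Bama, breed at room temperature, breed in the cold, the breed difference in the cold response, cold averaged and breed averaged. These were 4.66%, 5.54%, 8.44%, 11.2%, 1.32%, 10.3% and 21.3% of hosts, against 4%, 5.04%, 7.66%, 9.06%, 1.03%, 11% and 19% of all genes. Without the 10 highest circles the class differences between breeds turned positive: 0.04, 0.112 and 0.076 percentage points of share at room temperature, in the cold and averaged, and 0.012, 0.033 and 0.022 for the log2 ratio to exonic counts. Counts per 1000000 gene counts then turned to -1.78 for cold in Bama and -0.384 for cold averaged. With at least 10 counts, 51.031% shared 1 end. The cause was not tested.

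Leaving out each library in turn gave, in the same order of comparisons, 0 to 6, 1 to 2, 7 to 10, 4 to 8, 0 to 2, 1 to 3 and 13 to 19 calls. The highest for Hezuo in the cold came without Hezuo cold replicate 1, and 0 without Hezuo cold replicate 3 or Hezuo room temperature replicate 3. Ratio calls were 0 to 1, 0 to 0, 0 to 7, 1 to 2, 0 to 1, 0 to 2 and 5 to 11, and host calls 0 to 6, 1 to 16, 1 to 49, 10 to 44, 0 to 3, 14 to 50 and 77 to 176. The share difference between breeds in the cold ran from -0.868 to 0.343 and its log2 ratio from -0.203 to 0.087, above 0 without Hezuo cold replicate 1. Counts per 1000000 gene counts for cold ran from -13.622 to 9.201 in Bama and from -1.986 to 10.252 averaged. None of the named circles reversed. Depth limits what can be seen: 1457 of 1978 circles had too few counts to test, and an absence in 1 pig is an absence at 39117 to 75616 back-splice counts.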
